A study of Drosophila melanogaster with 3 samples.

Results

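Low-ranked peaks whose summits lie inside coding exons were examined in a ChIP-seq series on the homeobox transcription factor NK7.1 of Drosophila melanogaster. The pooled peak list was sorted by its signal value, and peaks were taken at ranks above 5000 that shared not even 1 bp with the authors' reproducible set. Of these, peaks were kept when the summit lay in an annotated coding exon and more than 1 kb from every transcription start site (TSS). The rule gave 2689 coding-exon peaks, which is 9.98% of the 26951 peaks in the pooled list and 12.5% of the 21509 peaks that met the conditions on rank and overlap. The peaks were thus selected on their pooled signal value, their coding position and their TSS distance, and these measures are described here without a test.

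The flies were of 1 transgenic line that expresses NK7.1-eGFP, with the tag at the C-terminal end, and an anti-GFP antibody precipitated the chromatin. Mixed-sex whole embryos aged 0 to 24 hours gave 3 biological replicates of this 1 group, so every value is a mixture over cell types and embryonic ages. Chromatin was sonicated, and the labels give a fragment size range of 200 to 800. A control was used in peak calling, but libraries of control chromatin or of an untagged line were not analysed here.

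Homeobox factors of the NK family bind short sites, many of them AT-rich, and act in the patterning of mesoderm, muscle and nervous system. A list written as input for the irreproducible discovery rate (IDR), which measures rank agreement between replicates, is called with a loose threshold, so its lower ranks hold background as well as weak sites. Coding exons of flies are richer in G and C than introns, and many carry runs of CAG codons, known as opa repeats, that encode glutamine.

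The base composition of the coding-exon peaks is visible in their sequences. The first set shows 3 of the 10 peaks with the highest signal, each as the summit base with 50 bases on either side and as a window of the same length centred 300 bp away in the same exon, on the plus strand of dm6, from the Release 6 assembly. Capitals mark G and C. The pairs are shown because the within-exon comparison below rests on 1887 such pairs, and because they differ in direction. In dsx, which encodes the sex-determination factor Doublesex, the summit window held 73.3% GC against 59.4% in the other window. In CG42748 the order was the opposite, with 50.5% at the summit against 60.4%, and the summit lay 19 bp from the edge of the exon. Its summit window ran past the exon's end at 22144280, so this order does not compare exon sequence alone. In Msp300, which encodes a giant nesprin that anchors muscle nuclei, the windows were close, at 65.3% and 66.3%.
dsx summit, chr3R:7930256-7930356: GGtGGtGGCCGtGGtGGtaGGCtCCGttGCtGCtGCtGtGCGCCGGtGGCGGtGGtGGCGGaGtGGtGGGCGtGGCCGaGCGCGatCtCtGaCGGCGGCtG
dsx same-exon window, chr3R:7930556-7930656: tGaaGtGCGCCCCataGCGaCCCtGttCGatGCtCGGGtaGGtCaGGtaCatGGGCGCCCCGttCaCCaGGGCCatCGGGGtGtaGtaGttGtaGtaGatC
CG42748 summit, chr2L:22144211-22144311: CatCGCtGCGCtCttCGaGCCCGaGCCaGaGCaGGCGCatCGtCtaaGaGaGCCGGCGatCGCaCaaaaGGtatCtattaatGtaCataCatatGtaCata
CG42748 same-exon window, chr2L:22143911-22144011: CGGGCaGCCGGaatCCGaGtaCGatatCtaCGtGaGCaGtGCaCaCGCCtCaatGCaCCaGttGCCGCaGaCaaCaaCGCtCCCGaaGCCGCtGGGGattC
Msp300 summit, chr2L:5103161-5103261: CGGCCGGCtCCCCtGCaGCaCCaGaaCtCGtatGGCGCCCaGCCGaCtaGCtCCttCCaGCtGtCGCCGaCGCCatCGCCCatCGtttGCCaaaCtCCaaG
Msp300 same-exon window, chr2L:5102861-5102961: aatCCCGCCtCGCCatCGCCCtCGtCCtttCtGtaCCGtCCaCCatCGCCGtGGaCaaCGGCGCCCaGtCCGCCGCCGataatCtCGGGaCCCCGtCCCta

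The second set shows summit windows with a run of the codon repeat from 3 of the 13 genes that held 5 or more such peaks. They are shown because this repeat, unlike the homeobox core motifs, was found at a larger share of coding-exon summits than of intronic ones. Capitals mark the run on the plus strand of dm6. The 3 genes lie on the minus strand, where CTG reads as CAG. The osa window held 73.3% GC, the ctrip window 57.4% and the Ncoa6 window 50.5%.
osa summit, chr3R:17707849-17707949: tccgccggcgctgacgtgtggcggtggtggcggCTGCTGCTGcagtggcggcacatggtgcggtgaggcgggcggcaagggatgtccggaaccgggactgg
ctrip summit, chr3R:4796886-4796986: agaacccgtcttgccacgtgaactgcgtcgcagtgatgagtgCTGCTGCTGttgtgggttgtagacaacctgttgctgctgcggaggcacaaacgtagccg
Ncoa6 summit, chr2L:5321239-5321339: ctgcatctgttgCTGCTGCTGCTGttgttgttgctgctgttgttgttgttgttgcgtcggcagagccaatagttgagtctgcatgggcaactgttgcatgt

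The coding-exon peaks were weak entries of the pooled list. Their signal values, which are the authors' scores, ran from 26.9 to 61.6 with a median of 32.8, and their ranks from 5194 to 26948 with a median of 18268. The median deposited −log10 q-value was 0.127 and the highest was 1.43, and 39 peaks (1.45%) had a value of at least 1. Each peak was 420 bp wide, so the label of coding-exon peak holds for the summit: 1400 of the 2689 peaks (52.1%) reached past the end of the exon that held the summit. The median exon was 836 bp long and the median summit lay 195 bp from the exon's edge.

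Coding exons made up a growing share of the pooled list towards its lower ranks. At ranks 1 to 2475, 5 peaks (0.202%) had a summit in a coding exon over 1 kb from every TSS, and at ranks 2476 to 5000 there were 8 (0.317%). The share was 5.92% at ranks 5001 to 10000, 11.9% at 10001 to 15000, 14.6% at 15001 to 20000 and 15.4% at 20001 to 26951. Above rank 5000 only peaks with no overlap with the reproducible set were counted, over all pooled peaks of the range. Of the 21951 pooled peaks there, 21509 had no such overlap. Up to rank 5000 every coding-exon peak was counted. Such sequence makes up 10.6% of the 6 chromosome arms. The share was thus far below the share of the genome at the top of the list and above it in the lowest ranks. The rank was part of the rule and these shares carry no test.

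**Figure D1:**
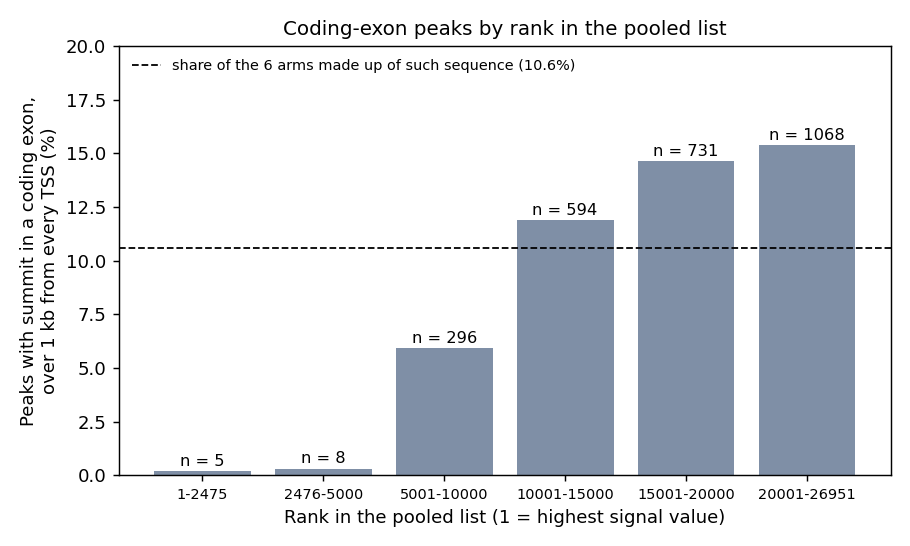
Share of pooled peaks (%) with a summit in a coding exon over 1 kb from every TSS, by rank in the pooled list, with the number of such peaks above each bar. The dashed line is the share of the 6 arms made up of such sequence, 10.6%. The bars rise from 0.202% at ranks 1 to 2475 to 15.4% at ranks 20001 to 26951.

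The list was sorted by signal value, so values could only fall across the rank threshold. At rank numbers just under 5000, outside the rule, coding-exon peaks lay in Fbl6 (signal 68.6, rank 4239), Prp3 (65.3, rank 4634), gukh (64.2, rank 4776), toc (63.6, rank 4868) and sgl (63.5, rank 4881). At rank numbers just over it, the strongest members lay in Imp (61.6, rank 5194), tna (61.5, rank 5209), fj (60.5, rank 5362), gw (60.4, rank 5379) and milt (60.1, rank 5430).

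The strongest coding-exon peaks were seen in most replicate lists, at widely differing ranks. In Imp, which encodes an mRNA-binding protein, the peak on the X chromosome at 10798724 to 10799143 overlapped peaks ranked 6195, 8679 and 5736 in replicates 1, 2 and 3. In tna, which encodes a zinc-finger protein that interacts genetically with Brahma complexes, the ranks were 8288, 7989 and 9881. In fj, which encodes a Golgi kinase of the Fat and Dachsous pathway, they were 9972, 3073 and 14757. Imp and tna stood at similar depths in each list, whereas the fj peak was far higher in replicate 2.

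In gw, which encodes the GW182 protein of microRNA silencing, the ranks were 13634, 4282 and 6330. In milt, which encodes the adaptor Milton of mitochondrial transport along axons, they were 7786, 8056 and 5135. The peak in CG42748 ranked 3425 in replicate 1 but 24371 and 24956 in the others. Its place among the 10 strongest pooled peaks therefore went with a high rank in 1 replicate.

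The peak in dsx ranked 4928, 18725 and 5148. In bon, which encodes a TIF1-family chromatin cofactor, it ranked 7393 in replicate 1 and 4706 in replicate 3, and no peak of replicate 2 overlapped it. In Myo31DF, the unconventional myosin of left-right asymmetry, the ranks were 9915, 5688 and 6742, and in Msp300 they were 9745, 10756 and 4266. Of the 10 strongest peaks, 9 were overlapped in all 3 replicates, and the highest rank in any list was the 3073 of fj in replicate 2.

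Among all coding-exon peaks the overlap with replicate 1 was the lowest. A peak of replicate 1 overlapped 993 of the 2689 (36.9%, 95% exact Clopper-Pearson interval 35.1 to 38.8), a peak of replicate 2 overlapped 1626 (60.5%, 58.6 to 62.3) and a peak of replicate 3 overlapped 1768 (65.7%, 63.9 to 67.5). Over the replicates this was 54.4% ± 15.3 (SD, n = 3). Intronic peaks of the same rank range were overlapped at 59.2%, 60.2% and 63.1%, so the low value in replicate 1 was seen in coding exons and far less in introns. The 580 peaks in noncoding exons or UTRs were overlapped at 51.7%, 59.8% and 61.2%, so a smaller shortfall in replicate 1 was present there as well. The intervals cover counting error only, and since the replicates are part of the pool, the overlap is a description and not an independent check. Replicate 1 also had the shortest list, 25801 peaks against 30000 in each of the others, and the lowest median GC at its low-ranked summits, 41.6% against 45.5% and 47.5%. The part of either in the low overlap was not tested.

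**Figure D2:**
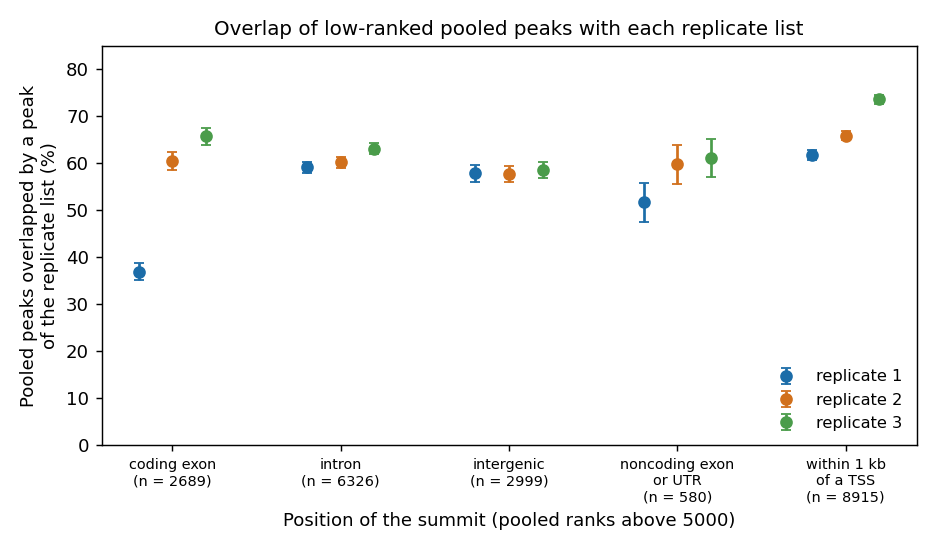
Share of low-ranked pooled peaks (%) overlapped by at least 1 bp by a peak of each replicate list, by the position of the summit, with exact Clopper-Pearson 95% intervals. Coding-exon peaks lie at 36.9% in replicate 1 against 60.5% and 65.7% in the others, while intronic peaks lie between 59.2% and 63.1%.

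Few coding-exon peaks were present in every replicate list. Of the 2689, 324 (12.05%) were overlapped in all 3 replicates, 1181 (43.9%) in 2, 1053 (39.2%) in 1 and 131 (4.87%) in none. Replicates 2 and 3 without replicate 1 formed the most frequent pattern, with 688 peaks (25.6%). In introns 21.9% of peaks were overlapped in all 3 replicates, and within 1 kb of a TSS 29.6%, but those classes also ranked higher, with median ranks of 16519.5 and 14420 against 18268. The median rank of the overlapping peak was 15152 in replicate 1, 14162 in replicate 2 and 14706.5 in replicate 3. Of these overlapping peaks 12, 140 and 91 ranked in the top 5000, or 0.446%, 5.21% and 3.38% of the 2689. The same counts for other low-ranked peaks are not given here. The rule chose peaks low in the pool of these replicates, so their ranks in the single lists are a description only.

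The overlap of coding-exon peaks fell steeply with rank, as it did in introns. At ranks 5001 to 10000, 47.0% of coding-exon peaks and 56.9% of intronic peaks were overlapped in all 3 replicates, and at ranks 20001 to 26951 the shares were 3.84% and 8.16%. Replicate 1 overlapped 65.2% of coding-exon and 84.7% of intronic peaks at ranks 5001 to 10000, and 28.7% and 43.6% at the lowest ranks. The difference from introns in replicate 1 was thus also present among peaks of like rank, in each of the 4 rank ranges. In replicates 2 and 3 the coding-exon shares at ranks 5001 to 10000, 84.5% and 91.9%, lay above the intronic ones, 81.8% and 86.6%.

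The same rule applied to each replicate's own list gave 1685, 3432 and 3779 coding-exon peaks in replicates 1, 2 and 3. These were 8.31%, 14.0% and 15.5% of that replicate's low-ranked peaks, a mean of 12.6% ± 3.78 (SD, n = 3), and replicate 1 lay well under the others. The median summit GC of these peaks was close across replicates, at 55.4%, 55.4% and 56.4%. With 1 group there is no contrast between conditions to test.

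Within coding exons, the density of low-ranked summits rose with GC content. Eligible coding sequence, that over 1 kb from every TSS, was divided into 123535 tiles of the length of a summit window, and 2430 of the 2689 summits fell in a tile. Tiles under 40% GC held 0.502 summits per 100 tiles (27 summits), tiles of 55 to 60% held 2.31, tiles of 60 to 65% held 3.23 and tiles of 65% or more held 5.30 (322 summits). The density in the most GC-rich tiles was 10.5 times that in the poorest. In the replicates' own lists the ratio was 4.97, 4.33 and 9.24, so the rise was seen in each with a smaller size. Densities in tiles of 65% or more were 2.40, 4.67 and 6.19 in replicates 1, 2 and 3, or 4.42 ± 1.90 (SD, n = 3), against 0.484, 1.08 and 0.670, or 0.744 ± 0.304, under 40%. These 2 sets of values did not overlap, and they are given without a test.

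Intronic tiles showed a shallower course. Their pooled density was 1.19 per 100 tiles under 40% GC, 1.81 at 55 to 60%, 2.18 at 60 to 65% and 2.26 at 65% or more, the last from 14 summits in 619 tiles. In replicate 1 the intronic density was 1.49 under 40%, rose from 1.30 at 40 to 45% to 1.64 at 60 to 65%, and was 0.808 at 65% or more. The last value rests on only 619 tiles. In coding exons of the same replicate the density rose throughout. GC-poor coding tiles thus held fewer low-ranked summits than GC-poor intronic tiles in the pooled list, and GC-rich coding tiles held more. Exon length, codon content and GC change together in coding sequence, and their parts were not tested separately.

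**Figure D3:**
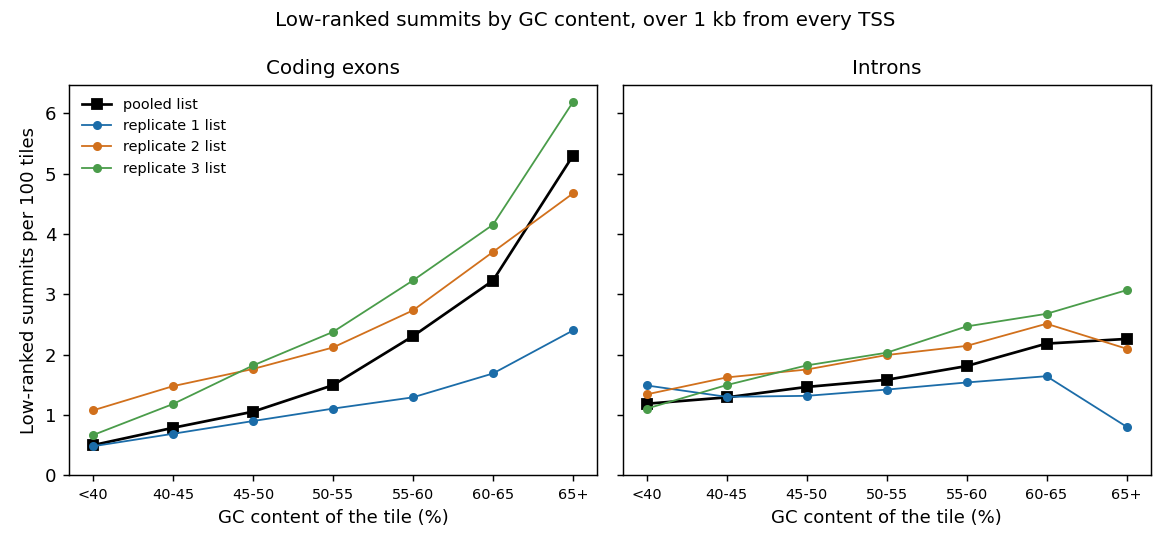
Low-ranked summits per 100 tiles, each as long as a summit window, against the GC content of the tile (%), in coding exons (left) and introns (right), both over 1 kb from every TSS, for the pooled list and each replicate list. In coding exons the pooled density rises from 0.502 to 5.30, and in introns from 1.19 to 2.26.

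Summits were also somewhat richer in GC than other sequence of their own exon, a comparison independent of the choice of coding exons. Of the 2689 peaks, 1887 had an exon long enough to hold a second window. Only this second window had to lie wholly in the exon, and the summit window could reach past it. The summit had the higher GC in 1012 pairs and the lower in 785, with 90 ties. The share higher was 56.3% (exact 95% interval 54.0 to 58.6, exact two-sided binomial sign test p = 9.39e-08). The mean difference was 1.09 ± 0.161 percentage points (SE over pairs), small beside the SD of 7.01 points among pairs. A difference of 10 points or more was found upwards in 154 pairs (8.16%) and downwards in 80 (4.24%). Peaks of the same gene are not independent, and with 1 peak per gene, as under each other alternative tried, the share higher lay between 55.7% and 59.9%.

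Intronic peaks showed no such difference past the threshold. Among 6105 intronic pairs the summit was higher in 49.3% (48.0 to 50.6, exact two-sided binomial sign test p = 0.293). The mean difference was −0.175 ± 0.168 points (SE). The odds of a higher summit were 1.33 times as large in coding exons as in introns (95% interval 1.19 to 1.47, two-sided Fisher's exact test p = 1.99e-07). In the replicates' own lists the coding share higher was 52.4%, 53.3% and 55.9%, or 53.9% ± 1.83 (SD, n = 3), and the mean differences were 0.403, 0.647 and 0.815 points. All 3 replicates therefore had the direction of the pooled list with a smaller size, on 1146, 2376 and 2672 pairs. No test or interval is reported for a single replicate.

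**Figure D4:**
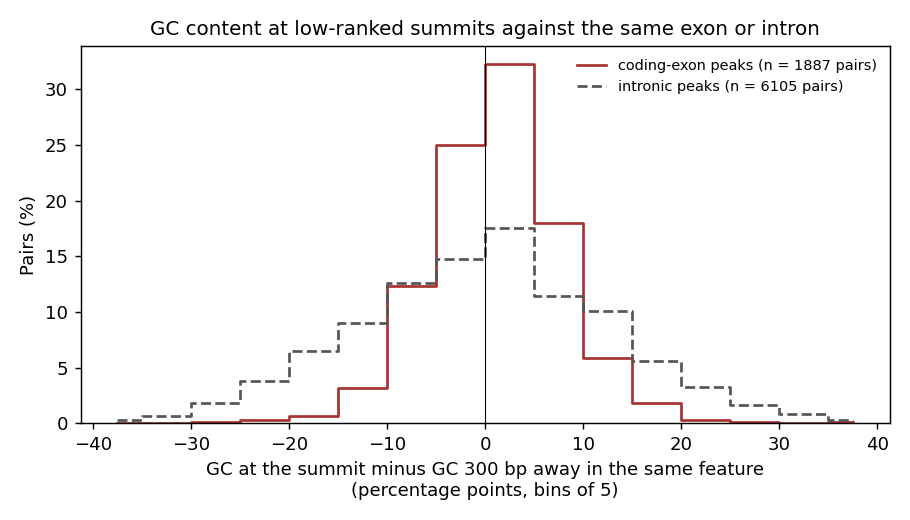
Distribution over pairs (%) of the GC content at the summit minus that of a window 300 bp away in the same exon or intron, in bins of 5 percentage points, with differences of 0 counted in the bin that starts at 0. The coding-exon curve (1887 pairs) is narrower than the intronic curve (6105 pairs, SD 13.1 against 7.01) and leans to the right, with a mean of 1.09 against −0.175 points.

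No short word differed past the threshold between summits and their exons in the main comparison, which does not show that none differs. Of all 6-mers, counted on either strand with reverse complements merged, 0 (0%) differed between the summit and the same-exon window after Benjamini-Hochberg adjustment of exact two-sided McNemar tests, and the lowest adjusted p was 0.289. At an unadjusted p under 0.05, 51 were more frequent at the summit and 66 less frequent, together 5.63% of the words tested. Exact tests on small counts let through less than 5% by themselves, and overlapping words are not independent. This share therefore decides nothing by itself. With none past the threshold, the leading words are a description. Towards the summit CCGCCC was in 10.5% of summit windows against 7.15%, AGCGAG in 7.53% against 4.82% and CCCGCC in 8.37% against 5.67%. Away from it GTGCAA was in 2.81% against 5.14% and ATATAG in 0.742% against 2.07%.

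Of 6 motifs tested in the same way on both strands, with TAATTG and TAATTA sharing 5 letters, 0 (0%) passed the threshold, 0 had an unadjusted p under 0.05, and the exact McNemar adjusted p-values were at least 0.664. The codon repeat CAGCAGCAG was in 113 summit windows and 122 same-exon windows (odds ratio 0.906, exact 95% interval 0.670 to 1.22). TAATTG, a core recognised by some homeodomains, was in 29 against 39 (0.744, 0.443 to 1.23). TAATTA, a core common to many homeodomains, was in 10 against 8, GAGAG, the element of GAGA factor, in 235 against 214, CAGGTA, the Zelda element, in 56 against 56, and CACGTG, an E-box, in 30 against 22. The intervals are wide, so these counts do not show that summits and exons are alike.

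For the homeobox cores, the shares at coding-exon summits lay nearer to those of coding tiles than to those of peaks elsewhere. TAATTG was in 1.79% of the summit windows of all coding-exon peaks, in 2.43% of eligible coding tiles, in 9.83% of intronic low-ranked summits and in 9.49% of reproducible summits. TAATTA was in 0.707%, 0.542%, 6.94% and 6.95% of the same windows. CAGCAGCAG went the other way, with 4.95%, 3.35%, 0.964% and 0.242%. GAGAG was similar throughout, at 12.1%, 12.6%, 12.9% and 11.8%. Base composition differs between these classes by the way they were chosen, so the shares are a description without a test.

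The coding-exon peaks were spread thinly over genes. Of 9015 genes with eligible coding sequence, 2099 (23.3%) held at least 1. Of these, 1654 genes held 1 peak, 341 held 2, 79 held 3 and 25 held 4 or more. The share of genes with a peak followed the amount of eligible sequence, from 5.2% of genes with up to 0.5 kb to 69.9% of those with more than 8 kb. Per kb of coding sequence the largest genes held fewer, at 0.107 peaks against 0.218 in the smallest. Some peaks lay side by side: 427 (15.9%) had another such summit within 1 kb, and 250 (9.30%) overlapped another.

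The number of coding-exon peaks was 5 or more in 13 genes, of which 10 held exactly 5. The 10 genes described first are those that remain when ties are ordered by peaks per kb, and the other 3 follow. The gene osa, which encodes a subunit of the Brahma remodelling complex, held 7 peaks in 8.16 kb of eligible sequence, and its replicate lists held 2, 5 and 5. Replicate counts per gene are of peaks that met the rule in that replicate's own list, not of pooled peaks overlapped. Ncoa6, which encodes a nuclear receptor coactivator, held 6 in 7.39 kb, with 1, 4 and 5 in the replicates. The gene Gug, which encodes the corepressor Atrophin, held 5, with 3, 2 and 4. In osa and Ncoa6 replicate 1 gave the lowest count, and in Gug replicate 2 did.

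The gene skd, which encodes the Mediator subunit Med13, held 5 peaks, with 1, 3 and 2 in the replicates. A replicate 2 peak ranked 4191 overlapped a pooled skd peak but is not counted, since its rank is outside the rule. A single replicate peak could also overlap more than 1 pooled peak. In ctrip, which encodes a HECT-type ubiquitin ligase, there were 5, with 1, 6 and 3. The synaptic scaffold gene gukh held 5 (2, 4 and 6 in replicates 1, 2 and 3) beside its stronger peak just outside the rank threshold. These genes too had their lowest count in replicate 1.

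The receptor tyrosine kinase gene Alk held 5 peaks and had 2 in each replicate list. CG13917 held 5, with 2, 4 and 3. The lipoprotein precursor gene apolpp, on chromosome 4, held 5, with 2, 3 and 4. The gene dpy, which encodes a giant extracellular matrix protein of epidermal attachment, held 7 peaks, but over 68.8 kb of eligible sequence, and its replicate lists held 9, 8 and 13. Per kb it therefore had far fewer peaks than osa, with 0.102 against 0.858.

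The other 3 genes with 5 peaks had longer eligible sequence. Mical, which encodes a flavoprotein that disassembles actin, had 1, 3 and 5 in the replicate lists on 13.5 kb. In unc-13, which encodes a factor of synaptic vesicle priming, the replicates gave 3, 5 and 4 on 13.9 kb. In Msp300 they gave 3, 6 and 9 on 60.7 kb. Replicate 1 gave the lowest count in each of these.

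**Figure D5:**
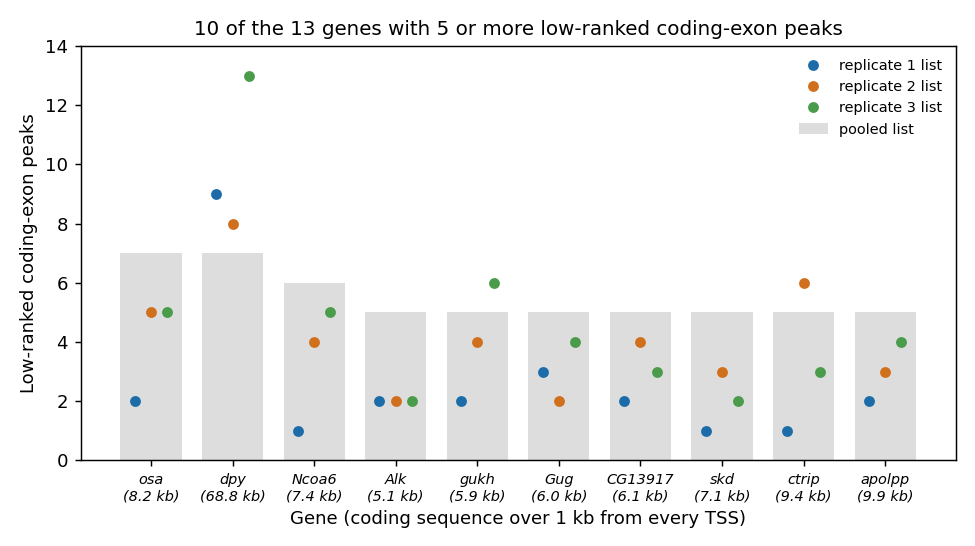
Number of low-ranked coding-exon peaks in 10 of the 13 genes with 5 or more of them, ties at 5 being ordered by peaks per kb, in the pooled list (bars) and in each replicate list (points), with the kb of coding sequence over 1 kb from every TSS under each name. Replicate 1 gives 1 to 3 peaks in each of these genes except dpy, where it gives 9.

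Gene groups were described per length, since large genes hold more eligible sequence. Of the listed genes, 1 of 18 muscle structural genes, 1 of 13 Notch pathway genes and 4 of 12 dynein heavy chain genes were not analysed here. Over all genes there were 19.0 coding-exon peaks per 100 kb, with 11.9, 24.2 and 26.6 in the replicate lists, or 20.9 ± 7.91 (SD, n = 3). Chromatin regulators held 36 peaks in 18 of 26 genes, or 25.2 per 100 kb, with 11.9, 30.1 and 28.7 in the replicates. That equalled the value over all genes in replicate 1 and lay above it in the others. Besides osa and skd the group included Chd1, a chromatin remodeller, with 3 peaks.

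Notch pathway genes held 11 peaks in 7 of 12 genes, or 32.7 per 100 kb, with 17.8, 32.7 and 32.7 in the replicates. Each of these lay above the value over all genes in the same list, on only 33.7 kb of sequence. The receptor gene N held 3, and numb, which encodes an inhibitor of the pathway, and mam, which encodes its coactivator Mastermind, held 2 each.

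Structural groups lay lower. Muscle structural genes held 25 peaks in 11 of 16 genes, or 11.9 per 100 kb (8.58, 16.7 and 15.2 in the replicates), led by Msp300 with 5, the titin-type gene sls with 4 and the projectin gene bt with 3. Cadherins held 12 in 9 of 15 genes, or 11.1 per 100 kb (7.40, 15.7 and 12.9), with 2 each in shg, the E-cadherin gene, CadN2 and Cad89D. These 2 groups were below the value over all genes in every replicate.

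Extracellular matrix genes held 20 peaks in 10 of 12 genes, or 13.7 per 100 kb (14.4, 12.3 and 20.6 in the replicates), among them 4 in the laminin gene wb and 2 in the collagen gene Col4a1. Axon guidance and synaptic adhesion genes held 19 in 13 of 29, or 12.7 (9.33, 16.0 and 19.3), with 3 in Nrx-1, the neurexin gene, and 2 each in the Slit receptor gene robo1 and in Dscam4. Ion channel genes held 7 in 6 of 19, or 6.57 (7.51, 11.3 and 14.1), with 2 in the potassium channel gene Shab. Of these groups, axon guidance genes and ion channels lay below all genes in every replicate, and matrix genes lay above them in replicate 1. Dynein heavy chain genes held 4 in 4 of 8, or 4.13, but the replicates gave 6.19, 20.6 and 8.25, so their order among groups was not stable.

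Short genes gave few peaks. Chemosensory receptor genes held 5 peaks in 5 of 141 genes, or 6.64 per 100 kb (7.97, 17.3 and 11.95 in the replicates). One of them, in the odorant receptor gene Or43b, was among the stronger peaks, with a signal of 58.0 at rank 5784, and was found in all 3 replicate lists. Cuticle protein genes held 4 in 4 of 28, or 21.1 per 100 kb (10.6, 52.8 and 26.4). Cytoplasmic ribosomal protein genes held 1 peak, in RpL6, on 2.66 kb of sequence. No replicate list had a peak there that met the rule by itself, although the pooled peak was overlapped in at least 1 replicate.

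The density of the groups did not follow their coding GC in one order. Over all genes the coding GC was 53.3%. Muscle structural genes (49.7%), cadherins (51.2%), dynein heavy chains (52.3%) and chemosensory receptors (47.7%) were poorer in GC and lower in pooled density than all genes. Notch pathway genes (56.8%), cuticle protein genes (58.1%) and ribosomal protein genes (57.5%) were richer and higher. Chromatin regulators, at 52.5%, were poorer yet higher, and matrix (54.5%), axon guidance (54.1%) and ion channel genes (53.7%) were richer yet lower. The part of GC in these densities was not tested.

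Position relative to the reproducible set also differed from introns. The median coding-exon summit lay 12171 bp from the nearest reproducible summit, against 16377.5 bp for intronic low-ranked summits, yet only 7 coding-exon summits (0.260%) lay within 1 kb of one, against 195 (3.08%) in introns. Within 5 kb the share was 24.0% in both. Coding-exon peaks thus seldom flanked a reproducible peak directly. The share of eligible coding sequence within 1 kb of a reproducible summit was not computed, so this may hold for such sequence in general. The median distance to the nearest TSS was 2350 bp, and 1139 peaks (42.4%) lay 1 to 2 kb from one.

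Exons of middle length held the most peaks per length. The density was 14.1 per 100 kb in exons of up to 250 bp, 20.4 from 250 to 500 bp, 23.7 from 500 to 1000 bp, 21.3 from 1000 to 2000 bp and 14.0 above 2000 bp. In replicate 1 the highest value was at 250 to 500 bp (13.9), and in replicates 2 and 3 at 500 to 1000 bp (27.6 and 32.6). The fall in both the shortest and the longest exons was seen in each replicate.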

How the data were processed

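ChIP-seq peak lists on dm6, the build named in the deposited text listings, were used for 3 biological replicates, their pool and the reproducible set. Per the same listings the authors called peaks against a control. For each peak they deposited a signal value, a score of unstated scale, and a −log10 q-value. Neither aligner nor peak caller is given in the sources used here. The lists hold no read counts, so depth is unknown and intervals cover the counting of peaks only.

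Coordinates are 1-based. Coding exons came from Ensembl 115 and sequence from the Release 6 assembly, and transposable-element entries gave no TSS. Overlapping coding exons were merged. Summit windows of 50 bases on either side were set against a window centred 300 bp away in the same exon or intron, the side being drawn at random with a fixed seed. GC was compared by the exact binomial sign test, words by the exact McNemar test and classes by Fisher's exact test, each two-sided, adjusted by Benjamini-Hochberg over all 6-mers or the 6 motifs, with a threshold of 0.05. The tests were tested on simulated data. Replicates entered with ranks above 5000 in their own lists. Genes were named by a rule: the 10 strongest peaks, the 5 on each side of rank 5000, the 10 genes with the most peaks (ties by peaks per kb, with the 3 further genes tied at 5 peaks added after their values were seen) and the 3 leading genes of each of 11 gene lists, of which the text gives those that add to the group. The members, lists and tests were chosen with earlier results of these data known. The dm3 lists were not used here. Alternatives changed the window, its distance, the rank, the TSS distance, the exclusion around reproducible peaks, the replicates and the peaks per gene. Software was Matplotlib 3.10.9, pandas 2.3.3, SciPy 1.17.1, NumPy 2.4.6 and Python 3.11.15.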

Additional observations from a re-analysis of the deposited data

How the results depend on the processing

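No paired analysis was possible because the series holds 1 group, so replicate numbers pair no samples between groups. The pairs of windows tested are stretches of sequence, not samples. The GC tests kept their direction and their side of the threshold under each alternative run. The share of coding-exon summits with the higher GC lay between 55.7% and 59.9%. Leaving out 1 replicate at a time, by keeping the pooled peaks overlapped in both others, gave 56.4% to 59.9%. The calls, ranks and summits of these peaks still came from the pool of all 3 replicates, so this does not remove a replicate's part in them. The replicates' own lists gave lower shares, 52.4%, 53.3% and 55.9%. Requiring the summit window to lie wholly inside its exon, an alternative chosen after seeing the data, gave 58.1%. The ratio of summit densities between the GC-richest and GC-poorest coding tiles lay between 8.72 and 12.3 under the alternatives on pooled peaks. In the replicates' own lists it was 4.97, 4.33 and 9.24. With the comparison window 500 bp away, 1 6-mer passed the threshold, GCCGCC (20.1% of summit windows against 13.8%, adjusted p = 0.00997 by the exact McNemar test), named after its value was seen, and the cause was not tested. With a TSS distance over 2 kb the mean replicate share in coding exons was 7.31%, a choice that leaves less coding sequence, and the mean of the replicates' median GC was 56.4%. Odds ratios of motifs, none past the threshold, changed sides of 1 as follows. At 500 bp they were 1.06 for CAGCAGCAG, 0.970 for GAGAG and 0.769 for CACGTG, and over 2 kb from a TSS 1.19 for TAATTG and 0.875 for TAATTA. Without 1 replicate they ran from 0.25 to 0.8 for TAATTA (0.8, 0.25 and 0.5 without replicates 1, 2 and 3) and up to 1.22 for CAGCAGCAG (1.14 without replicate 2). On the same side of 1 or at it, TAATTG moved from 0.744 to 0.462 without replicate 1, and CAGGTA from 1.00 to 0.455 without replicate 3. The lists hold no read depth, which limits every statement on weak peaks to their order in a list.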

Other observations

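The X chromosome held fewer coding-exon peaks per eligible length than the large autosome arms, with 13.9 per 100 kb against 18.3 on 2L, 20.5 on 2R, 20.5 on 3L and 21.1 on 3R. In the replicates' own lists the X value was 8.40, 18.2 and 21.7, under each of these 4 arms in each replicate. The eligible coding sequence of the X held 55.4% GC, the highest of the 6 arms. Chromosome 4, with 41.6% GC, held 17.8 peaks per 100 kb on 241 kb, and 12.02, 24.9 and 19.5 in the replicates. The GC content was 52.7% on 2L, 52.9% on 3L, 53.4% on 2R and 53.7% on 3R. In the pooled list the density thus rose with GC from chromosome 4 to 3R, and the X lay outside this order. In replicate 2 chromosome 4 lay above 2L (23.7), so the replicate lists did not all keep it. The part of GC was not tested. The embryos were of pooled sex, and the part of X copy number was not tested.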
